A study of Mus musculus with 58 samples.

Results

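The heart was compared between tumour-bearing (T) and control (C) mice that had received no training. These 6 arrays, 3 T and 3 C, were taken by their tissue and group labels out of 58 arrays of the series, of which 12 were of heart. All mice were male CD2F1 animals (a cross of BALB/c and DBA/2), 6 to 8 weeks old on arrival and housed singly on chow. T mice carried a tumour grown from C26 colon adenocarcinoma cells placed under the skin of the right groin, C mice had a sham injection of saline, and both were killed at day 19. The same tumour contrast in mice given whole-body vibration training (T + WBV and C + WBV, 3 hearts each; 15 minutes a day at 45 Hz and 1.0 g) and in 2 hindlimb muscles, m. extensor digitorum longus (EDL) and m. soleus (SOL), served for comparison. The model is a transplanted tumour in young mice, with no other cause of cachexia tested, and each heart array came from 1 animal, so the 3 arrays of a group were separate mice. The RNA was of the heart as dissected, all its cell types included.

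The heart is a muscle that never rests: its cardiomyocytes burn mostly fatty acids in dense mitochondria and contract through sarcomeres triggered by calcium release. In cachexia, the wasting syndrome of cancer, the C26 tumour is known for raising circulating interleukin-6, which signals through the receptor subunit gp130 and the transcription factor STAT3, and for raising adrenal glucocorticoids. Both signals act on many tissues, and in liver they switch on the acute phase response, a set of secreted proteins that limit infection and tissue damage.

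Hearts of tumour-bearing mice were lighter. Heart mass was 111.8, 117.6 and 119.3 mg in the T mice and 153.2, 132 and 140.9 mg in the C mice, without overlap. The mean was 116.2 ± 3.93 mg against 142.0 ± 10.7 mg (SD, n = 3 each), 18.2% lower in T (exact two-sided permutation test, p = 0.1, the smallest p that 3 against 3 allows). Carcass mass, the body without the tumour, was 17.19 g in T and 24.67 g in C (means), and heart mass per gram of carcass was higher: 6.24, 6.54 and 7.61 mg/g in T against 6.15, 5.10 and 6.07 mg/g in C (exact permutation p = 0.1). The groups did not overlap in this ratio either, and C replicate 2 was lowest. Per percent of starting body mass the groups overlapped, T replicate 1 at 1.401 mg lying below C replicate 1 at 1.419 mg (exact permutation p = 0.2).

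Expression was measured on whole-transcript arrays and is given as log2 values, so that a difference of 1 is a 2-fold change. The 6 arrays had median values of 4.537 to 4.597 over all probe sets, and correlated at 0.9913 to 0.9945 within groups and at 0.9821 to 0.9846 between T and C (Pearson's r over genes, a description). Of 18820 genes, 1081 differed at an adjusted p under 0.01 in limma (5.74% of genes tested), and these are the genes spoken of as called, higher or lower. Among them 509 were higher in T (2.70%) and 572 lower (3.04%), and 305 moved at least 2-fold (1.62%), of which 189 were higher and 116 lower. When each array was centred on its own median the split was 608 higher and 454 lower, from 1062 in all. The median difference over all genes was 0.0043, and 50.8% of differences were above 0, the share against which counts of signs in a list are read. With 1 of the 6 arrays left out, between 368 (without T replicate 2) and 694 genes (without T replicate 1) were called, with 435 without T replicate 3, 503 without C replicate 1, 540 without C replicate 2 and 490 without C replicate 3. Without C replicate 2, the moves of at least 2-fold numbered 134 higher and 119 lower. Without T + WBV replicate 2, a trained array that enters only the estimate of the spread, 1937 genes were called. In 6025 genes (32.0%) the 3 T arrays did not overlap the 3 C arrays, the share against which each gene without overlap is read. Control replicate 2 stood below the other controls in immune genes: its mean over the interferon list lay 0.48 below the control mean, against 0.09 and 0.38 above it for the others. Of 157 called genes named by rule, 68 stayed called whichever of the 6 arrays was left out; for the others the adjusted p rose to at most 0.0462, and the highest value is given below as the leave-out p of each gene described that lost its call. The tissue label held: 13 measured ventricular cardiomyocyte markers had a mean level of 11.03, 11.11 and 11.19 in T and 11.27, 11.28 and 11.28 in C. Their differences were below 0 in 11 of 13 (median -0.14, 1 called lower), and the part of this shift in the falls of contractile, calcium and mitochondrial genes was not tested. The 10 epithelial and carcinoma markers lay between 3.56 and 3.71, with 0 of them called.

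**Figure D1:**
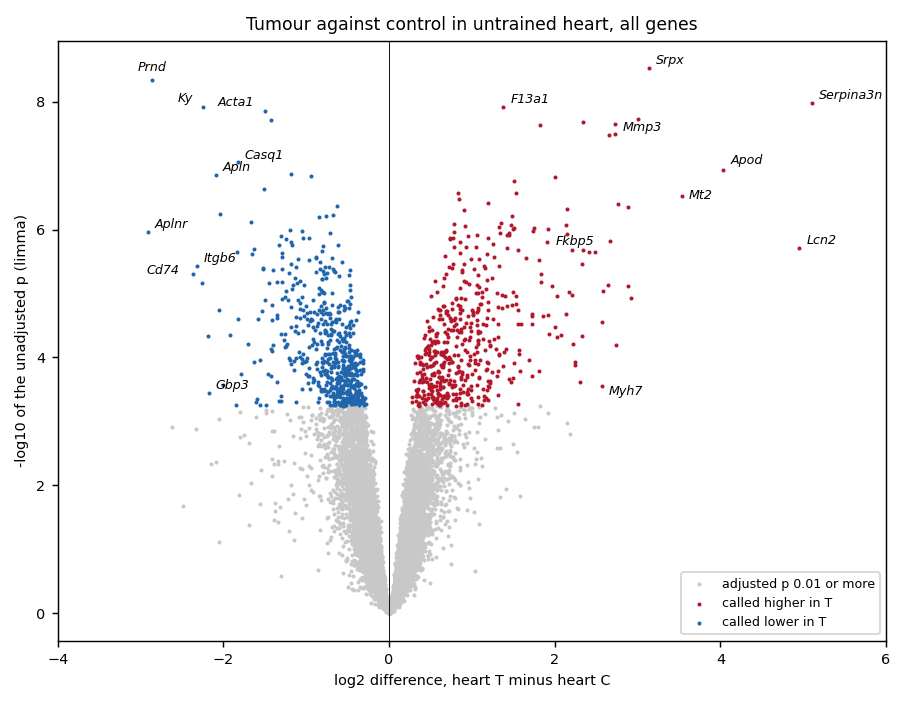
Each point is 1 gene; the x axis is the log2 difference of heart T minus heart C and the y axis is -log10 of its unadjusted limma p. Red and blue points are the 509 genes called higher and the 572 called lower; Serpina3n at 5.11 and Aplnr at -2.91 mark the ends.

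The 2 largest rises were in acute phase genes. The list of acute phase and interleukin-6/STAT3 genes held 34 that were measured, and 17 were called higher and 0 lower, against 2.70% higher over all genes, and the median difference was 0.76. Serpina3n, a secreted inhibitor of serine proteases, was at 11.66, 11.84 and 11.76 in the T hearts and at 6.86, 6.62 and 6.46 in the C hearts. The groups lay far apart, with each group tight: T was 34.4-fold higher, a log2 difference of 5.11 ± 0.43 (SE, adjusted p = 3.9e-05). Lcn2, lipocalin 2, which binds the iron carriers of bacteria, stood at 10.58, 10.73 and 10.72 in T and at 5.78, 5.30 and 6.09 in C. That was a 30.9-fold rise (difference 4.95 ± 0.64, adjusted p = 0.00045).

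Further members of this list rose by less. Itih4, a liver-type acute phase protein, was at 7.62, 7.94 and 8.01 in T and at 5.64, 5.52 and 5.44 in C (difference 2.33 ± 0.32, adjusted p = 0.00058). Lrg1, a leucine-rich secreted glycoprotein, was at 9.63, 9.40 and 9.57 against 7.54, 7.20 and 7.44 (2.14 ± 0.34, adjusted p = 0.0014). No T array fell among the C arrays for either gene. The receptor side rose with the secreted products. Osmr, the receptor of oncostatin M, a cytokine of the interleukin-6 family, was at 9.28, 9.35 and 9.44 in T and 7.36, 7.30 and 7.41 in C (2.00 ± 0.21, adjusted p = 0.00015), and Il6st, which encodes gp130, differed by 0.33 (leave-out p up to 0.0374). Stat3 itself was at 10.25, 10.26 and 10.27 in T and 9.45, 9.54 and 9.47 in C, a small and even shift (0.78 ± 0.11, adjusted p = 0.00059). Its target Socs3, the feedback inhibitor of the pathway, was at 5.47, 5.30 and 5.43 against 4.24, 4.33 and 4.43 (1.07 ± 0.20, adjusted p = 0.0039, leave-out p up to 0.0181). Cebpd, a transcription factor of the acute phase, rose by 1.92. The message for interleukin-6 was low in every heart, between 1.67 and 2.05, with Il6 in T differing by -0.10 (adjusted p = 0.78). Hp and Saa3, which encode the acute phase proteins haptoglobin and serum amyloid A3, were 1.58 and 1.33 apart but spread widely among the controls and were not called (adjusted p = 0.084 and 0.086). With 1 array left out, between 10 (without T replicate 2) and 15 (without T replicate 1) of the 34 were called higher. Serpina3n has close relatives in the mouse serpin cluster, and their share in its probe set was not tested.

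Promoters are printed for 6 of the genes that rose: the acute phase genes Serpina3n, Lcn2, Itih4 and Socs3, and the metallothionein genes Mt1 and Mt2, described next. The sequences are from RefSeq on build GRCm38.p6, 5′ to 3′ on the strand of the gene, from 250 bases before the start to 50 after it. Capitals mark matches to the letters searched on both strands: TTCNNNGAA (STAT) in Itih4 and Socs3, ACANNNTGT (glucocorticoid receptor) in Serpina3n, Lcn2 and Mt1, TTGCNNAA (C/EBP) in Lcn2 and Mt2, and TGCGCNC or TGCACNC (metal response element) in Mt1 and Mt2.
Serpina3n: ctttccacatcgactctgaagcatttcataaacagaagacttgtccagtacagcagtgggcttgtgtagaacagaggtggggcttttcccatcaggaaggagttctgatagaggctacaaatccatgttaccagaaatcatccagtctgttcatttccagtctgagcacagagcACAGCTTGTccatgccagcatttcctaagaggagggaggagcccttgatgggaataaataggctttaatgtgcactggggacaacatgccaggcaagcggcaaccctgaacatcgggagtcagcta
Lcn2: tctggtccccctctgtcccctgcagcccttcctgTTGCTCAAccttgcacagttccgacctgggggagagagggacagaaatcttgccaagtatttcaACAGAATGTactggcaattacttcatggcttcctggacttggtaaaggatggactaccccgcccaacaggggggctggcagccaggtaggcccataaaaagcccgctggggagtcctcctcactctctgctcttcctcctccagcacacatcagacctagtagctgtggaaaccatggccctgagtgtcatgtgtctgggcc
Itih4: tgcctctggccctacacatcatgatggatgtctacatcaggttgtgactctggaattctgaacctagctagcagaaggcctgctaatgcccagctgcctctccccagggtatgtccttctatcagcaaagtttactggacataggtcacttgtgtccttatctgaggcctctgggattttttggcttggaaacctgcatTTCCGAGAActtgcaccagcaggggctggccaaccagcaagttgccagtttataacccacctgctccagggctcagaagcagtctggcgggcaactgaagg
Socs3: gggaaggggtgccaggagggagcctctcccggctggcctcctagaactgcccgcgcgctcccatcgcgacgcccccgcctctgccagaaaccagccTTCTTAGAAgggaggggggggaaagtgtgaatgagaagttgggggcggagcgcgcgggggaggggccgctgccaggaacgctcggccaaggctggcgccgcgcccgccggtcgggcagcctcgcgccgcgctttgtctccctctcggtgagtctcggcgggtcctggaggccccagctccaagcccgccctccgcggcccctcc
Mt1: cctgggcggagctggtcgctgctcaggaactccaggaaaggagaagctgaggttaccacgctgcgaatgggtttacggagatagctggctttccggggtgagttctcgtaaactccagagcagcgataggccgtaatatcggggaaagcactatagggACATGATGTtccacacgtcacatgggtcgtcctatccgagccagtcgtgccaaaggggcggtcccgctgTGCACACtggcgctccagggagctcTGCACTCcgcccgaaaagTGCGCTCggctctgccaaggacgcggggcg
Mt2: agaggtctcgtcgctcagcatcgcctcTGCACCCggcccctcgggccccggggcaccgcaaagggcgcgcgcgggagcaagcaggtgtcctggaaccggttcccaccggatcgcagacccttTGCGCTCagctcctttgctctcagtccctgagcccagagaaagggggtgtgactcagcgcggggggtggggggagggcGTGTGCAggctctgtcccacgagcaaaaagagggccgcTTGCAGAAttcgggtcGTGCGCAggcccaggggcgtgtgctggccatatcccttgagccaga

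The 6 windows lie at chr12:104406458-104406757 (+) for Serpina3n, chr2:32387690-32387989 (-) for Lcn2, chr14:30886226-30886525 (+) for Itih4, chr11:117969317-117969616 (-) for Socs3, chr8:94178839-94179138 (+) for Mt1 and chr8:94172368-94172667 (+) for Mt2. Counting the first transcribed base as 1, the STAT letters began at -51 in Itih4 and at -154 in Socs3, and such letters stood in 8.3% of 32851 mouse promoters of this length. The glucocorticoid receptor letters began at -76 in Serpina3n, -152 in Lcn2 and -92 in Mt1 (6.85% of all promoters), and the C/EBP letters at -216 in Lcn2 and -12 in Mt2 (10.8%). Metal response letters were common (25.7% of promoters held at least 1), but Mt1 held 3 matches and Mt2 held 4, none overlapping another. E-box letters (CACGTG, 7.15% of promoters) and letters of the interferon-stimulated response element (ISRE, 3.44%) were in none of the 6 windows. A match describes the letters only and is no evidence of a bound factor.

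Metallothioneins, small cysteine-rich proteins that hold zinc and copper, rose with them. Mt2 was at 12.28, 12.21 and 11.94 in T and at 9.06, 7.97 and 8.80 in C, an 11.6-fold rise (3.53 ± 0.39, adjusted p = 0.00023). Mt1 was at 12.63, 12.57 and 12.43 against 11.28, 10.85 and 11.08 (1.47 ± 0.18, adjusted p = 0.00039). Neither gene overlapped between groups. Of the 15 zinc genes measured, 4 were higher and 0 lower, with a median of 0.08; the other 2 were the zinc importers Slc39a14 (1.07 ± 0.16) and Slc39a8 (0.95 ± 0.20, leave-out p up to 0.0398).

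Of 30 glucocorticoid target genes 12 were called higher and 0 lower, with the highest list median, 0.89, and 25 of 30 differences above 0. The list shares Lcn2, Mt1, Mt2 and Cebpd with the lists above. Fkbp5, a co-chaperone that restrains the glucocorticoid receptor, was at 9.49, 9.49 and 9.47 in T and at 6.98, 6.70 and 6.78 in C (2.66 ± 0.34, adjusted p = 0.00041). The T arrays were nearly equal and all above the controls. Cdkn1a, the cell cycle inhibitor p21, was at 8.57, 8.82 and 8.64 against 5.77, 6.41 and 5.64 (2.74 ± 0.49, adjusted p = 0.0026, leave-out p up to 0.0148). Ddit4, an inhibitor of the growth kinase mTORC1, was at 8.95, 8.94 and 8.63 against 6.33, 6.88 and 6.42 (2.30 ± 0.47, adjusted p = 0.0059, leave-out p up to 0.027). The groups did not overlap for these 3 genes, as for 32.0% of all genes. Zbtb16, Tsc22d3, Sgk1 and Klf15 were also called, with differences of 1.84, 1.12, 1.00 (leave-out p up to 0.0406 for Sgk1) and 0.88. With 1 array left out 8 to 10 of the 30 were called higher, 8 without C replicate 3, T replicate 2 or T replicate 3. Of 18 clock genes measured, 1 was higher, the repressor Nfil3 (1.55), and 1 lower, the repressor Bhlhe41 (-1.35).

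**Figure D2:**
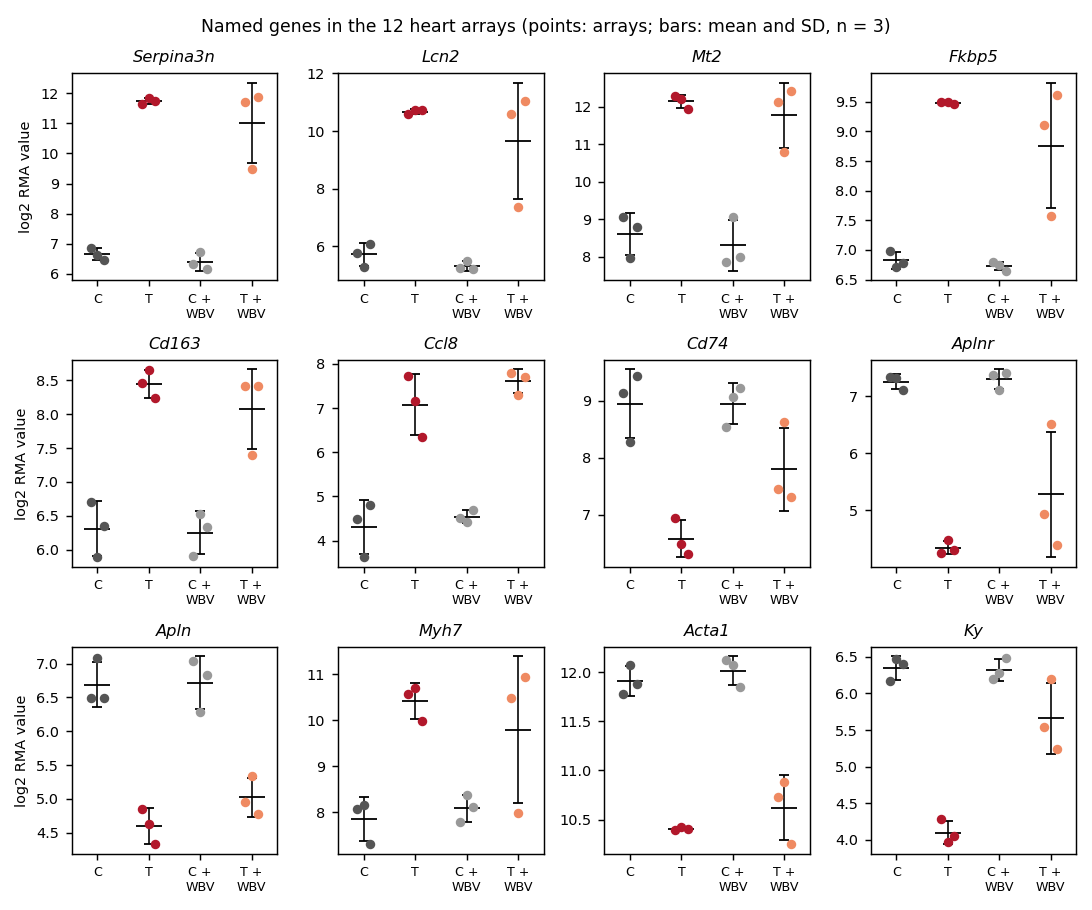
Log2 values of 12 genes in the 12 heart arrays, 3 per group; points are arrays, bars are mean and SD. T and C do not overlap for these 12 genes (nor for 32.0% of all genes), and the T + WBV array nearest to the controls in Serpina3n, Lcn2, Aplnr and Myh7 is replicate 2.

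The other genes among the 12 largest rises were of varied function. Apod, apolipoprotein D, a lipid carrier, was at 10.95, 11.42 and 11.39 in T and 7.43, 7.02 and 7.22 in C (4.03 ± 0.41, adjusted p = 0.00014). Srpx, a secreted sushi-domain protein, was at 8.46, 8.54 and 8.65 against 5.42, 5.70 and 5.13 (3.13 ± 0.24, adjusted p = 3.9e-05). Both stood more than 2 log2 units clear of every control. Scgb3a1, a secretoglobin, differed by 3.01, Adamts15, a secreted protease, by 2.92, Fetub, a fetuin, by 2.89 and Jaml, an adhesion molecule of leukocytes, by 2.88. These 4 genes also stayed called whichever array was left out. Among the 12 largest falls outside the lists were Itgb6, an epithelial integrin chain (-2.32 ± 0.32), and Nrep, a small neuronal protein (-2.05 ± 0.24), both called in every leave-out fit, and Retnla, a marker of alternatively activated macrophages (-2.19 ± 0.38, leave-out p up to 0.014).

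Of 22 macrophage and monocyte markers, 11 were called higher and 0 lower (median 0.62), 7 differences were below 0, and without C replicate 2, the control low in immune genes, 8 were called higher and 2 lower. Their median was then 0.55, and the mean level of the list was 6.88 to 7.02 in T and 6.17 to 6.64 in C. In bulk RNA, more cells of a type and more RNA per cell cannot be told apart. Cd163, the scavenger receptor for haemoglobin bound to haptoglobin, was at 8.46, 8.64 and 8.24 in T and 6.70, 5.89 and 6.35 in C (2.13 ± 0.26, adjusted p = 0.00039). Lyve1, carried by resident macrophages and lymphatic vessels, was at 9.50, 9.58 and 9.59 against 7.90, 7.69 and 7.86 (1.74 ± 0.21, adjusted p = 0.00039), and Mrc1, the mannose receptor, at 9.06, 9.09 and 8.89 against 7.57, 7.55 and 7.42 (1.502 ± 0.16, adjusted p = 0.00016). For Cd163, Lyve1 and Mrc1 no T array overlapped the C arrays, as for 32.0% of all genes. These genes are markers of tissue-resident macrophages, but they were named for the size of their rises. The list members below 0 are not named here. Retnla, a macrophage marker outside the list, differed by -2.19. A change in resident macrophages as a type was not tested. F13a1, which encodes a clotting factor subunit made by macrophages, rose by 1.38 ± 0.12 (adjusted p = 3.9e-05). The complement genes C1qa, C1qb and C1qc rose by 1.07, 1.19 and 1.08. Without T replicate 1, 7 of the 22 were called higher, the lowest of the leave-outs.

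Complement and coagulation genes overlapped with this group, 14 of 29 being called higher and 1 lower (median 0.63). Besides the C1q chains and F13a1, the called genes included the C1 proteases C1ra and C1s1 (1.06 and 1.00), their inhibitor Serping1 (0.85), the receptor C5ar1 (1.17, leave-out p up to 0.0276) and Cfi, complement factor I (1.499 ± 0.30, leave-out p up to 0.0247). Plau, the urokinase that activates plasminogen, fell by 1.21 (adjusted p = 0.0034, leave-out p up to 0.0201). Without C replicate 2, or without T replicate 2, 8 of the 29 were called higher.

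Neutrophil markers and chemokines were partly higher. Of 16 neutrophil markers 5 were called higher and 0 lower (median 0.51), and 3 were called higher without T replicate 3, C replicate 1 or C replicate 2. S100a9 was at 6.29, 6.46 and 7.14 in T and 4.69, 4.54 and 4.95 in C, and its partner S100a8 at 5.37, 5.65 and 5.88 against 3.67, 3.39 and 4.10; both differed by 1.91. Cxcr2, a chemokine receptor of neutrophils, differed by 2.18 ± 0.32, highest in T replicate 3 at 6.14. Of 26 chemokines, 5 were called higher and 0 lower, and with 1 array left out 5 were higher in each case, with 3 lower without C replicate 2. Ccl8, which draws monocytes, was at 7.73, 7.16 and 6.35 in T and 4.499, 3.62 and 4.81 in C (2.77 ± 0.31, adjusted p = 0.00027), and Cxcl14 at 8.74, 9.19 and 8.58 against 5.92, 6.56 and 6.11 (2.64 ± 0.38, adjusted p = 0.00083). The remaining calls were Ccl6 (2.21), Ccl9 (1.85) and Ccl11 (0.76). In the NF-kB list 2 of 29 genes were higher, the interleukin-1 receptor brake Irak3 (1.42) and the TNF receptor Tnfrsf1a (0.92), and 0 were lower.

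Genes of MHC class II, which present antigen to helper T cells, were lower: 4 of 8 were called lower and all 8 differences were below 0 (median -1.12). Cd74, the invariant chain, was at 6.94, 6.49 and 6.31 in T and 9.13, 8.27 and 9.43 in C (-2.36 ± 0.33, adjusted p = 0.00067). H2-Aa was at 5.07, 4.65 and 4.67 against 6.94, 6.06 and 7.53 (-2.05 ± 0.32, adjusted p = 0.0013), and H2-Ea, among the 12 largest falls though not in the list, at 6.35, 6.11 and 5.67 against 8.50, 7.59 and 8.80 (-2.26 ± 0.33, adjusted p = 0.00081). In each case C replicate 2 was the lowest control and still above every T heart. H2-Ab1 and H2-Eb1 completed the 4 calls, with differences of -1.92 (leave-out p up to 0.0131) and -1.50. Lymphocyte markers moved beside them without reaching the threshold: 0 of 15 were called and the median was -0.69, with list means of 3.25 to 3.38 in T and 3.44 to 4.30 in C. The B cell gene Cd79a was at 2.66, 2.85 and 3.32 in T and 4.53, 3.34 and 4.94 in C (adjusted p = 0.025). The part of lymphocyte content in the class II result was not tested.

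Interferon response genes leaned the same way but depended on the controls. Of 34 measured, 31 differences were below 0 (median -0.52), 4 were called lower and 0 higher. Gbp3, a GTPase against intracellular pathogens, was at 5.17, 5.07 and 5.11 in T and 7.56, 6.12 and 8.20 in C (-2.18 ± 0.47, adjusted p = 0.0075, leave-out p up to 0.0361). The T arrays were alike, and the controls spanned about 2 log2 units with C replicate 2 lowest. Rsad2, Xaf1 and Ifit2 fell by 1.35, 0.84 and 0.76 (leave-out p up to 0.0335, 0.0367 and 0.0416). Without C replicate 2, 12 of the 34 were called lower, and without C replicate 1, C replicate 3, T replicate 2 or T replicate 3, 0 were.

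The apelin system fell in both ligand and receptor. Apelin is a peptide of endothelial cells and cardiomyocytes that strengthens contraction and widens vessels through its receptor, encoded by Aplnr. Aplnr was at 4.26, 4.48 and 4.31 in T and 7.35, 7.32 and 7.11 in C, 7.53-fold lower (-2.91 ± 0.36, adjusted p = 0.00039), the largest fall of any called gene. Apln was at 4.85, 4.62 and 4.33 against 6.49, 7.08 and 6.50, 4.26-fold lower (-2.09 ± 0.22, adjusted p = 0.00015). Neither overlapped between groups, and both stayed called in every leave-out fit. The natriuretic peptides, which signal wall stress, were not called. Nppa was at 12.26, 12.40 and 12.62 in T and 12.86, 12.87 and 12.61 in C (-0.36 ± 0.09, adjusted p = 0.020), and Nppb at 9.22, 9.50 and 9.32 against 9.78, 10.11 and 9.38 (-0.41 ± 0.24, adjusted p = 0.32). Corin, the protease that activates the atrial peptide, was called higher (0.69, leave-out p up to 0.011) and Mme, the peptidase neprilysin that degrades it, lower (-0.59, leave-out p up to 0.0422). In all, 1 of 10 genes of these systems was called higher and 3 lower.

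Endothelial genes moved in both directions. Of 21 markers, 4 were higher and 4 lower, with a median of 0.01 and list means of 8.25 to 8.31 in T and 8.12 to 8.21 in C. Among receptors of VEGF, the vessel growth factor, Flt1 rose by 0.92 ± 0.11 (adjusted p = 0.00039) and Kdr fell by 0.81 ± 0.14 (adjusted p = 0.0026, leave-out p up to 0.0166). Vwf, the adhesive protein of platelets, rose by 1.03 and the adhesion molecule Icam2 fell by 0.83. Prnd, a prion-like gene known from endothelium, came next after Aplnr in size of fall, at 3.03, 2.98 and 3.20 in T and 5.89, 6.31 and 5.59 in C (-2.86 ± 0.23, adjusted p = 3.9e-05), with no overlap. With 1 array left out 2 to 3 of the 21 were called higher and 1 to 3 lower.

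Vessel tone and adrenergic genes were called in both directions. Of 20 renin-angiotensin, endothelin and nitric oxide genes, 3 were higher (15.0%) and 4 lower (20.0%), against 2.70% and 3.04% over all genes. With 1 array left out, 1 to 2 of them were called higher and 3 lower. Ace, the angiotensin-converting enzyme, rose by 0.90 ± 0.12 and its substrate source Agt by 0.92 ± 0.17 (leave-out p up to 0.0155). The receptor Agtr1a fell by 0.43 (leave-out p up to 0.0493), and Ddah1, which clears an inhibitor of nitric oxide synthases, by 1.19 ± 0.15. Of 19 adrenergic and muscarinic genes, the adenylyl cyclase Adcy6 and the arrestin Arrb1 rose by 0.60 and 0.65, and the kinase anchor Akap5 fell by 1.40 (leave-out p up to 0.0139).

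In the contractile apparatus most called genes fell. Of 43 sarcomere and Z-disc genes 12 were lower and 2 higher, against 3.04% and 2.70% over all genes, and 34 differences were below 0 (median -0.22). Ky, a Z-disc protein needed for muscle growth and named for the kyphoscoliosis mutant, was at 4.28, 3.97 and 4.05 in T and 6.17, 6.47 and 6.41 in C (-2.25 ± 0.19, adjusted p = 3.9e-05). Acta1, skeletal alpha-actin, a gene of the fetal heart that often returns under load, was at 10.39, 10.43 and 10.40 against 11.77, 12.07 and 11.88 (-1.50 ± 0.13, adjusted p = 3.9e-05). Both groups were tight and did not overlap. Lmod3, leiomodin 3, which nucleates actin filaments, was at 8.12, 8.29 and 8.48 against 9.49, 9.58 and 9.56 (-1.25, leave-out p up to 0.0139). The other lower calls lay between -0.28 and -0.61.

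The 2 sarcomere genes that rose were Myh7 and Myot. Myh7, the slow beta-myosin heavy chain, which in mice marks the fetal and the stressed ventricle, was at 10.57, 10.71 and 9.98 in T and 8.08, 8.17 and 7.31 in C. That was 5.92-fold higher (2.57 ± 0.53, adjusted p = 0.0063), with no overlap, but the call was lost whichever of the 6 arrays was left out (leave-out p up to 0.0328). Its adult counterpart Myh6 lies on a probe set listed with both genes and was not used, and the 2 sequences are so alike that cross-hybridization to the Myh7 probes was not tested. Myot, the Z-disc protein myotilin, was at 8.91, 9.53 and 9.13 against 7.66, 7.29 and 7.45 (1.73 ± 0.29, adjusted p = 0.0017, 0.0121 without T replicate 2). In the list of fetal and stress genes of the ventricle, 1 of 20 was higher (Myh7) and 5 were lower: Acta1, Acta2, Myl4, Nmrk2 and Xirp2 (Xirp2 leave-out p up to 0.0148). With 1 array left out, 2 to 5 sarcomere genes were called lower (2 without C replicate 2 or T replicate 2), as were 2 to 4 genes of the fetal list. Under median centring 7 sarcomere genes were called lower, and under a second quantile normalization 5.

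Calcium handling genes followed the same direction, 7 of 28 being lower and 0 higher (median -0.19). Casq1 and Casq2 encode calsequestrins, the calcium stores of the sarcoplasmic reticulum. Casq1 was at 6.89, 6.43 and 6.49 in T and 8.37, 8.36 and 8.56 in C (-1.83 ± 0.18, adjusted p = 0.00012), and Casq2, the cardiac form, at 10.12, 10.15 and 10.31 against 11.11, 11.32 and 11.16 (-1.001 ± 0.19, adjusted p = 0.0037, leave-out p up to 0.019). Each fell without overlap. The kinases Camk2b and Camk2d fell by 0.89 and 0.66, and Srl, sarcalumenin, another store protein, by 0.78. The central pump and its partners were not called. Atp2a2, the calcium pump SERCA2, was at 12.91, 12.89 and 12.92 in T and 12.95, 12.96 and 12.91 in C (-0.03 ± 0.05, adjusted p = 0.73), a sign that turned under a second quantile normalization. Its inhibitor Pln differed by -0.08 ± 0.05 (adjusted p = 0.35), and the release channel Ryr2 by -0.08 ± 0.06 (adjusted p = 0.46). In each leave-out fit 4 of the 28 were called lower.

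Among 28 ion channel genes, 3 were called lower (10.7%) and 1 higher (3.57%), against 3.04% and 2.70% over all genes. Differences were below 0 in 20 of the 28. With 1 array left out 2 to 3 were called lower and 0 higher. Hcn4, the main pacemaker channel, was at 5.05, 5.00 and 5.42 in T and 6.08, 6.32 and 6.28 in C (-1.07 ± 0.15, adjusted p = 0.00079), and Hcn2 fell by 0.80 (leave-out p up to 0.0257). Of 6 measured conduction system markers Hcn4 was the 1 called, 3 differences were above 0 and 3 below, and the median was 0.05. Kcnip2, the subunit of the transient outward potassium current, was at 8.82, 8.33 and 8.81 against 9.57, 9.41 and 9.64 (-0.88 ± 0.12, adjusted p = 0.00065). Kcne4, a potassium channel subunit, was called higher at 1.19 (leave-out p up to 0.042). In the intercalated disc list 2 of 19 were lower, among them the desmocollin Dsc2 (-0.85 ± 0.13).

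Of 12 atrial markers, 9 differences were below 0 and 2 were called: Bmp10, an atrial growth factor (-1.63 ± 0.31, leave-out p up to 0.0187), and Myl4, the atrial essential light chain (-1.23 ± 0.22, leave-out p up to 0.0148). The mean of the list was 7.83, 8.15 and 8.34 in T and 8.73, 8.74 and 8.37 in C, so C replicate 3 lay near T replicate 3. How much atrium each sample held is not in the labels, and its part in the falls of Myl4, Bmp10 and Hcn4 and in the difference of Nppa was not tested. Smooth muscle alpha-actin Acta2 fell by 1.42 (leave-out p up to 0.0158), while 2 of 13 markers of pericytes and smooth muscle were called in all, both lower.

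**Figure D3:**
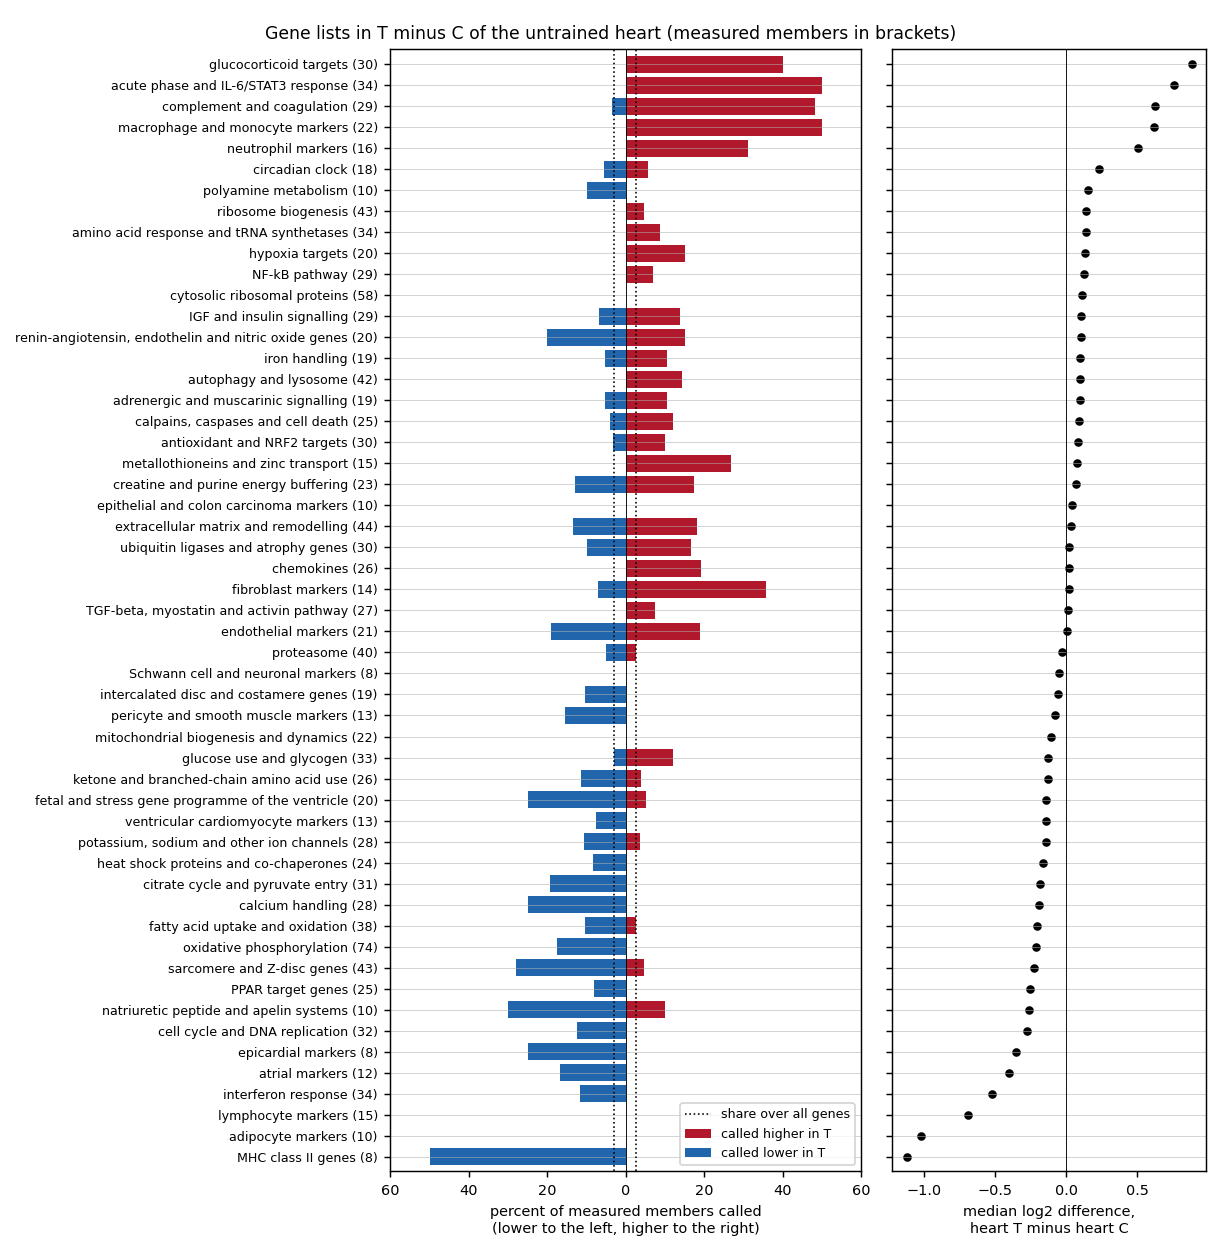
Left, percent of measured members of each list called higher (right, red) or lower (left, blue) in heart T minus C, with dotted lines at 2.70% and 3.04%, the shares over all genes; right, the median log2 difference of each list. Glucocorticoid targets stand at the top (median 0.89) and MHC class II genes at the bottom (-1.12); lists with under 8 measured members are not drawn.

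Of 74 oxidative phosphorylation genes, 69 differences were below 0 and 13 were called lower (17.6%, against 3.04% over all genes), 0 higher, with a median of -0.21. Cox7a1, the muscle form of a cytochrome oxidase subunit, was at 11.96, 11.84 and 11.77 in T and 12.33, 12.36 and 12.33 in C (-0.48 ± 0.08, adjusted p = 0.0020, leave-out p up to 0.0132), the largest of the 13. Ndufb2, of complex I, fell by 0.48 ± 0.07 and was called in every leave-out fit. The count moved with the settings: 2 to 5 genes of the list were called lower with 1 array left out (2 without T replicate 2 or T replicate 3), 1 with 1 prior variance for all genes, 7 under median centring, 0 in the fit of all 58 arrays and 24 with array weights, while the list median stayed below 0 in each. Of 31 genes of the citrate cycle and pyruvate entry 6 were lower, 0 higher (median -0.18), among them both succinyl-CoA ligase genes, Suclg1 and Sucla2, at -0.49 (leave-out p up to 0.0334) and -0.47. Without C replicate 1 or C replicate 3, 1 gene of this list was called lower.

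Of 38 genes of fatty acid uptake and oxidation 4 were lower and 1 higher (median -0.21). Acads, the short-chain acyl-CoA dehydrogenase, was at 8.62, 8.05 and 8.01 in T and 8.99, 9.06 and 8.98 in C (-0.78 ± 0.15, adjusted p = 0.0044, leave-out p up to 0.0273), with T replicate 1 nearest to the controls. The same array stood apart over the whole list, whose mean was 0.08 above the control mean in T replicate 1 and 0.34 and 0.23 below it in T replicates 2 and 3. Without T replicate 1, 10 of the 38 genes were called lower, and without T replicate 2, T replicate 3 or any of the C arrays, 0 were. Pdk4, the kinase that shuts pyruvate out of mitochondria in fasting, was at 11.57, 9.94 and 9.86 in T and 11.18, 10.34 and 10.69 in C and was not called (-0.28 ± 0.42, adjusted p = 0.74). Ucp3, an uncoupling protein that responds to fatty acids, was at 7.13, 4.86 and 5.79 against 8.44, 7.26 and 8.25 (-2.06 ± 0.49, adjusted p = 0.013). Both genes were highest in replicate 1 of their T group. Ppargc1a, the coactivator of mitochondrial biogenesis, differed by 0.06 ± 0.13 (adjusted p = 0.84), and 0 of 22 genes of mitochondrial biogenesis and dynamics were called.

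Other fuel genes moved in smaller numbers. Ppp1r3a, which anchors a phosphatase to glycogen, was at 10.93, 11.20 and 11.11 in T and 10.16, 10.04 and 10.19 in C (0.95 ± 0.12, adjusted p = 0.00039), and the glucose transporter Slc2a1 rose by 0.67 (leave-out p up to 0.0128). Of 33 glucose and glycogen genes 4 were higher and 1 lower. Oxct1, the first enzyme of ketone use, fell by 0.47 (leave-out p up to 0.0276), and Glul, glutamine synthetase, rose by 1.04 (leave-out p up to 0.0202). Of 23 genes of creatine and purine metabolism, 4 were higher and 3 lower (median 0.07). Ckm and Ckb, the muscle and brain creatine kinases, fell by 0.57 and 1.07 (Ckb leave-out p up to 0.0162). The other lower gene, the nucleotidase Nt5c1a, fell by 1.03 (leave-out p up to 0.017). The 4 higher genes encode enzymes that break down purines: Xdh rose by 1.41, Nt5e by 1.27, Ada by 1.21 and Pnp by 1.15 (leave-out p up to 0.0154, 0.014, 0.0156 and 0.037). Without T replicate 2, 0 genes of the list were called higher. Pck1, the gluconeogenic enzyme PEPCK, was among the 12 largest falls, at 4.35, 4.93 and 4.05 against 7.28, 5.96 and 6.10 (-2.0 ± 0.41, adjusted p = 0.0062, leave-out p up to 0.0326). Fat cells also express Pck1, and the 10 adipocyte markers had list means of 6.19 to 6.80 in T and 7.04 to 7.93 in C, highest in the same control, replicate 1. Of those markers 0 were called (median -1.03), and their part in the fall of Pck1 was not tested.

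Of 44 extracellular matrix genes, 8 were higher and 6 lower (median 0.04). Mmp3, stromelysin, was at 6.55, 6.66 and 6.79 in T and 3.71, 3.96 and 4.16 in C (2.73 ± 0.25, adjusted p = 4.8e-05), and Mmp2, a gelatinase, at 10.09, 10.10 and 10.10 against 8.71, 8.87 and 8.63 (1.36 ± 0.21, adjusted p = 0.0013). Lox, which cross-links collagen, was at 6.59, 7.21 and 6.75 against 4.72, 4.76 and 4.10 (2.32 ± 0.40, adjusted p = 0.0021, leave-out p up to 0.0147). The groups did not overlap for these 3 genes, as for 32.0% of all genes. The inhibitor Timp1 rose by 1.72 (adjusted p = 0.0101 without T replicate 2). Col1a1 was at 8.57, 8.17 and 8.14 in T and 8.14, 8.28 and 8.19 in C (0.09 ± 0.17, adjusted p = 0.80), and Col3a1 differed by -0.07 ± 0.17 (adjusted p = 0.85). Col15a1, of basement membranes, fell by 1.30 ± 0.19 and Postn, the fibroblast protein periostin, by 0.79 ± 0.11. Of 14 fibroblast markers 5 were higher and 1 lower, and with 1 array left out 0 to 2 were called higher. Without T replicate 2, 3 matrix genes were called higher.

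The muscle atrophy ligases Trim63 and Fbxo32 were not called in the heart. Trim63, MuRF1, was at 9.33, 9.79 and 9.07 in T and 9.46, 9.38 and 9.44 in C (-0.03 ± 0.19, adjusted p = 0.95), and Fbxo32, atrogin-1, at 9.35, 9.62 and 9.40 against 9.52, 9.10 and 9.27 (0.16 ± 0.14, adjusted p = 0.53). Both overlapped between groups. Among the 30 genes of their list 5 were higher and 3 lower, with Cdkn1a, Ddit4, Fbxo31 (1.19, leave-out p up to 0.0257) and the lysosomal protease Ctsl (1.06, adjusted p = 0.0116 without T replicate 2) leading. Other ubiquitin ligase genes were called too: Cblb rose by 0.77 (leave-out p up to 0.0357), and Asb2 and Trim55 fell by 0.95 and 0.46 (leave-out p up to 0.0305 and 0.0367). In the proteasome there was 1 of 40 genes called higher, 2 called lower and a median of -0.03. Of 42 autophagy and lysosome genes 6 were higher and 0 lower (median 0.10), among them Atg13, of the complex that starts autophagy, at 9.62, 9.68 and 9.78 in T and 8.61, 8.33 and 8.57 in C (1.19 ± 0.19, adjusted p = 0.0013), and Map1lc3b, LC3, which coats autophagosomes (0.65, leave-out p up to 0.0212). Without T replicate 2, 0 genes of the ligase list and 1 autophagy gene were called higher.

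Growth and division genes were mixed. Of 32 cell cycle and replication genes 4 were lower and 0 higher (median -0.28). Mki67, a marker of dividing cells, was at 3.39, 3.25 and 3.38 in T and 5.31, 4.63 and 5.18 in C (-1.70 ± 0.30, adjusted p = 0.0026, leave-out p up to 0.0143), and Ccnd1, cyclin D1, at 6.35, 6.05 and 6.29 against 7.44, 7.64 and 7.15 (-1.18 ± 0.16, adjusted p = 0.00058). The groups did not overlap for either; 1 gene of the list was called lower without C replicate 1, T replicate 2 or T replicate 3. Of 29 genes of insulin-like growth factor and insulin signalling, 4 were higher and 2 lower, against 2.70% and 3.04% over all genes. Igfbp4 and Igfbp3, which bind insulin-like growth factors, rose by 1.19 and 0.88 (Igfbp3 leave-out p up to 0.025). The receptor Igf1r rose by 0.58 (leave-out p up to 0.0405), and Ddit4, described above, was the other higher gene. Igfbp6, of the same binding proteins, fell by 0.71 (leave-out p up to 0.037), and Grb14 by 0.70 (leave-out p up to 0.0116). Of 58 cytosolic ribosomal protein genes 54 differences were above 0 but 0 were called (median 0.11). Tfrc, the transferrin receptor that takes up iron, was at 5.61, 6.04 and 6.14 in T and 7.07, 8.39 and 7.89 in C (-1.85 ± 0.42, adjusted p = 0.0098, leave-out p up to 0.0441).

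Fewer genes were called in each of the other stress lists than in the glucocorticoid set. The amino acid transporter subunit Slc3a2 was at 9.68, 9.82 and 9.90 in T and 8.53, 8.56 and 8.56 in C (1.25 ± 0.16, adjusted p = 0.00043). Hif3a, a relative of the hypoxia factors that is also glucocorticoid-sensitive, was at 6.34, 6.19 and 6.37 against 4.53, 3.86 and 4.45 (2.02 ± 0.35, adjusted p = 0.0022, leave-out p up to 0.0119). In both, every T heart stood above every control. Counts were 3 higher and 0 lower of 34 amino acid response genes (8.82% higher) and 3 and 0 of 20 hypoxia targets (15.0% higher). They were 3 and 1 of 30 antioxidant genes (10.0% higher) and 0 and 2 of 24 heat shock genes (8.33% lower). The shares over all genes were 2.70% higher and 3.04% lower. With 1 array left out, 2 to 4 amino acid response genes, 0 to 2 hypoxia targets and 0 to 2 antioxidant genes were called higher.

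The trained hearts gave the tumour contrast in 6 other mice. T + WBV minus C + WBV called 280 genes (1.49%), 190 higher (1.01%) and 90 lower (0.478%). Of the 1081 genes called in untrained hearts, 1065 had the same sign in trained hearts (98.5%, against 67.5% over all genes), and 225 were called there with that sign, with 0 called in the opposite direction. Serpina3n, Lcn2, Mt2 and Apod differed by 4.62, 4.34, 3.47 and 2.81, and Prnd, Aplnr and Apln by -2.74, -2.02 and -1.70, all called. T + WBV replicate 2 lay nearer the controls: its Lcn2 value was 7.35 against 10.59 and 11.05 in the other 2, and its body mass was 100.9% of the starting mass against 87.8% and 82.2%. Without that array 1625 genes were called in trained hearts, and 700 of the 1081 were among them with the same sign. The difference of the 2 tumour effects was tested in the same fit, and 0 genes passed in limma (1105 had an unadjusted p under 0.05; 3 passed in the fit of all 58 arrays). Ky, at -2.25 in untrained and -0.66 in trained hearts, and Rsad2, at -1.35 and 0.79, had among the lowest adjusted p of that test, 0.32 and 0.375.

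**Figure D4:**
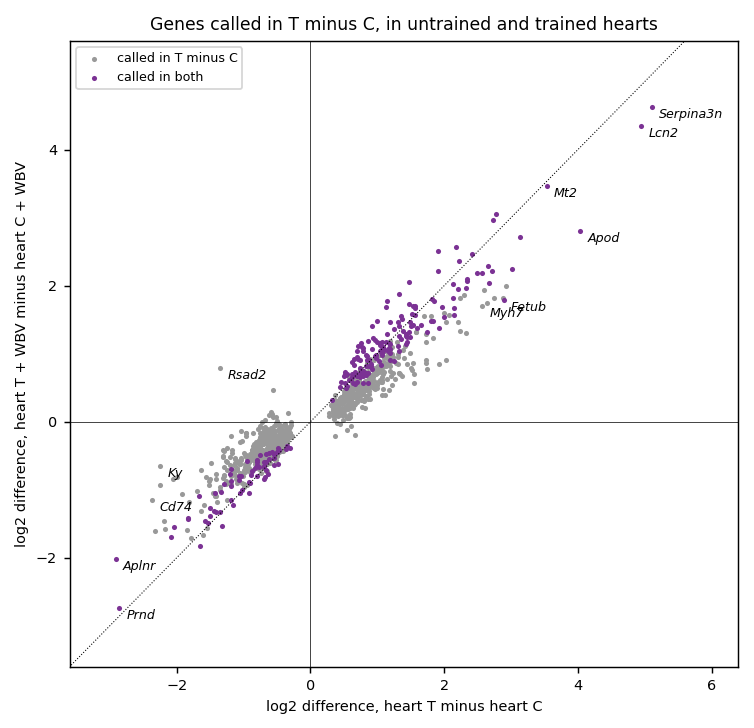
Each point is 1 of the 1081 genes called in heart T minus C; the x axis is its log2 difference in untrained hearts, the y axis that in trained hearts, and the dotted line marks equality. Purple points are the 225 called in both with the same sign; Rsad2 is one of the 16 with the opposite sign.

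Against the skeletal muscles of the same study, the tumour effect of the heart was tested gene by gene as a difference of differences. Each muscle had 12 untrained T and C arrays against 6 of heart, so some muscle mice had no heart array. Heart effects quoted here are from the fit of the heart arrays and muscle effects from the fit of 30 arrays. The tested differences therefore need not equal those between the quoted effects. In 30 untrained arrays with the mouse as a random block, 769 genes differed between heart and EDL (4.09%; 398 with the higher effect in heart, 2.11%, and 371 with the lower, 1.97%) and 435 between heart and SOL (2.31%; 281 higher, 1.49%, and 154 lower, 0.818%). In both tests and with the same sign, 243 genes passed (1.29%), and 116 of these were called in heart T minus C. Col1a1, Col1a2 and Kera, a cornea and tendon proteoglycan, were among the 5 with the largest higher effect: Col1a1 differed between T and C by 0.09 in heart, -3.41 in EDL and -3.72 in SOL, so the contrast came from a fall in the muscles. Frzb, a secreted Wnt inhibitor, differed by 0.61 in heart (adjusted p = 0.0068, leave-out p up to 0.0387) and by -2.39 and -2.65 in the muscles. Srpx was the one of these 5 with a large rise in the heart itself, 3.13 against 0.18 in EDL and -0.52 in SOL.

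The 5 genes with the lowest effect in heart relative to the muscles were Cxcl13, Fibin, Egln3, Spsb1 and an immunoglobulin kappa V gene. Egln3, an oxygen-sensing hydroxylase, was at 8.45, 8.26 and 8.42 in T hearts and 9.05, 9.74 and 9.54 in C hearts (-1.07 ± 0.27, adjusted p = 0.017), and differed by 1.75 in EDL and 1.20 in SOL. Spsb1, a ligase adaptor, differed by 0.15 in heart and by 2.23 and 2.11 in the muscles. The immunoglobulin gene, a product of B cells, was low and uneven in the controls (4.86, 2.19 and 4.29), and Cxcl13 was at 9.15, 6.05 and 9.15 in C; in both, C replicate 2 was lowest. The tissue tests also covered the atrophy ligases Trim63 and Fbxo32. The Trim63 effect in heart lay below that in EDL (2.66, adjusted p of the difference = 1.5e-07) and in SOL (1.54, adjusted p = 0.00068). For Fbxo32 the difference was called against EDL (effect in EDL 2.21) but not against SOL (0.63, adjusted p of the difference 0.33). By contrast Serpina3n, Lcn2 and Fkbp5 differed by 5.35, 5.49 and 2.70 in EDL, and the tests of their difference from heart were not called (adjusted p = 0.79, 0.63 and 0.86). Acta1 fell in heart and differed by -0.13 in EDL and -0.02 in SOL, both differences being called (adjusted p = 4.6e-12 and 4.5e-13). Apod, at 4.03 in heart, differed by 1.83 in EDL and 1.85 in SOL, also called against both. The tissue tests took a single spread per gene over heart and muscle arrays together. For Acta1 and Apod the SE of the heart-minus-EDL difference was 0.088 and 0.246. That was below the SE of the heart effect in the heart fit, 0.129 and 0.411. For Trim63 it was above, 0.29 against 0.19. A separate spread for heart was not tested.

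**Figure D5:**
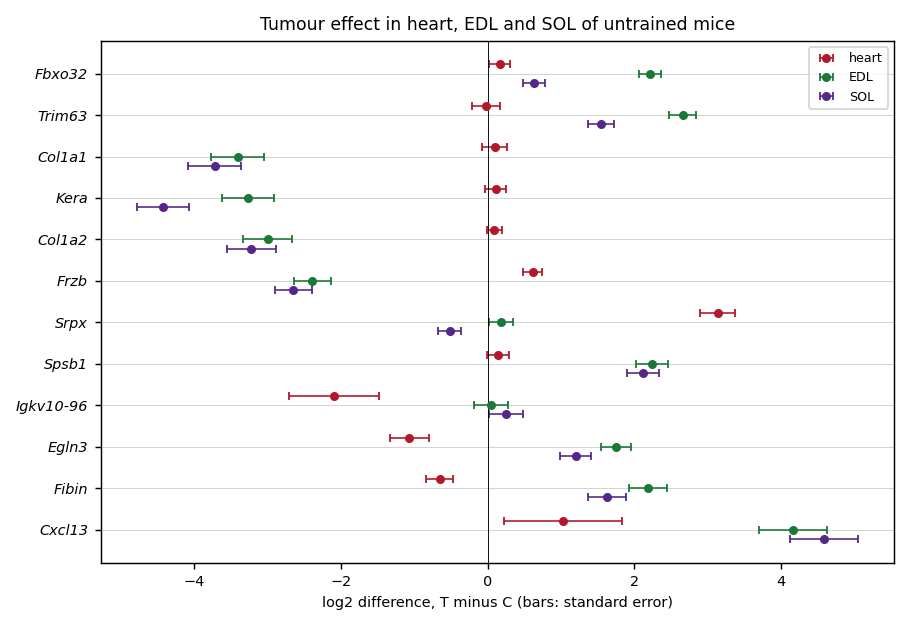
Log2 difference of T minus C in heart (red), EDL (green) and SOL (purple) of untrained mice for the 10 genes with the largest differences between tissues and for Trim63 and Fbxo32. Bars are standard errors, for heart from the fit of 12 heart arrays and for the muscles from the fit of 30 arrays, so they are not those of the tissue tests. Srpx stood at 3.13 in heart, 0.18 in EDL and -0.52 in SOL, and Trim63 stood at -0.03 in heart, 2.66 in EDL and 1.54 in SOL.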

How the data were processed

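RNA of hearts and hindlimb muscles was measured on Affymetrix whole-transcript mouse gene arrays, 1 array a sample. The deposited values are log2 expression per probe set, normalized by the authors with RMA (robust multi-array averaging; version not given in the sources used here). RMA quantile-normalizes all arrays together, which removes overall shifts in signal. The deposited table carries the array maker's probe sets, while the study's methods describe a custom probe grouping. Of 35556 probe sets, 21218 were listed with 1 gene symbol, 1881 with several and 12457 with none, and only the first were used. The probe sets of 1386 genes with more than 1 were averaged, giving 18820 genes.

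Heart T minus C was fitted with limma 3.58.1 (R 4.3.3; lmFit and eBayes with an intensity trend) on the 12 heart arrays, and p-values were adjusted by Benjamini-Hochberg over all genes and called under 0.01. The trained contrast and the difference of the 2 contrasts came from the same fit. Heart against EDL and SOL was fitted on 30 untrained arrays with the mouse as a random block (correlation 0.155, statmod 1.5.0). Masses were compared by exact permutation (scipy 1.17.1), and tables were made with pandas 2.3.3. The limma steps were tested on simulated data. Alternatives changed the variance prior, the arrays fitted, weights, normalization, filters and probe set choice, or left out 1 array.

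Named genes were the 12 largest rises and falls, in each list up to 4 called genes that moved most, 21 set genes, and the 5 genes in each direction that differed most from both muscles; Myh6, 1 of the 21, was not used because its probe set lists several genes. Other list members named were chosen after their values were seen. The lists and genes were chosen with earlier results of these data known. Arrays give no read depth, so the number of mice, 3 a group, limits the precision.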

Additional observations from a re-analysis of the deposited data

Results flagged for a closer look

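The tumour effect differed between heart and both muscles in 10 genes named for the size of that difference, each by a limma test of the difference itself. The heart effect lay below that of EDL and of SOL (a difference of -3.22 and -3.66) for Cxcl13. The same 2 differences were -2.89 and -2.33 for Fibin, -2.86 and -2.31 for Egln3, -2.14 and -2.35 for an immunoglobulin kappa V gene, and -2.11 and -1.99 for Spsb1. It lay above both muscles by 3.64 and 3.95 for Col1a1, 3.51 and 4.67 for Kera, 3.21 and 3.43 for Col1a2, 3.00 and 3.26 for Frzb, and 2.99 and 3.69 for Srpx.

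Probe sets with several gene symbols or none were outside the report's gene table. When all probe sets were tested together, 67 of those outside the gene table were called in heart T minus C. They were 13 of 1881 with several symbols (0.691%, 9 higher and 4 lower) and 54 of 12457 with none (0.433%, 22 higher and 32 lower). In the same test 464 of the 21218 probe sets with 1 symbol were called (2.19%).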

How the results depend on the processing

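The count of 1081 called genes ranged from 368 to 694 when 1 T or C array was left out. With a trained array left out, an alternative chosen after seeing the data, it ranged from 860 to 1937, highest without T + WBV replicate 2. It was 644 with 1 prior variance for all genes, 696 in the fit of all 58 arrays, 531 over all 35556 probe sets, 1832 with array weights and 2570 at an adjusted p under 0.05. The 305 genes over 2-fold became 173 to 264 without 1 T or C array and 281 to 356 without 1 trained array. In trained hearts 280 genes became 125 with 1 prior variance and 53 to 1625 with 1 array left out, lowest without T + WBV replicate 1 and highest without T + WBV replicate 2. The 769 genes that differed from EDL were 496 without the mouse block and 456 to 536 with 1 array left out, and the 435 that differed from SOL were 261 and 256 to 293. At an adjusted p under 0.05, also added after seeing the data for these 3 comparisons, the counts were 1169 in trained hearts, 1668 against EDL and 928 against SOL. The other settings run for these comparisons kept the counts within 1.5 times.

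Replicate numbers did not pair the mice: deviations of same-numbered T and C arrays correlated at 0.00035 to 0.0105. With the replicate block 874 genes were called, 427 higher and 447 lower, of which 292 moved over 2-fold, and 225 in trained hearts. Sign changes among named genes were in genes not called. Atp2a2 was at 0.0708 after a second quantile normalization, and Col3a1 at 0.0665 in the fit of all 58 arrays. With 1 array left out, Trim63 ranged from -0.2268 to 0.1339, Ppargc1a from -0.023 to 0.2157, Pdk4 from -0.8391 to 0.016, Col1a1 from -0.0468 to 0.1701, Col1a2 from -0.0216 to 0.1662, Col3a1 from -0.2501 to 0.0408 and Cxcl13 from -0.0023 to 1.55. The causes were not tested.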
